A study of Mus musculus with 18 samples.

Results

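CD8 T cells were compared with CD4 T cells that had been sorted from tumors of mice with a T cell deletion of miR-155 and that had received checkpoint antibodies. Chosen by their sample labels, 3 CD8 libraries and 3 CD4 libraries make up the comparison, 6 of the 18 libraries in the series. In the treated deficient groups, B6 mice carried a floxed miR-155 gene with Cre driven by the CD4 promoter, which is active while both T cell lineages develop, and were given antibodies to CTLA-4 and to PD-1/PD-L1 by injection at days 3, 6 and 9. Each injection was 250 ul of solution at 1, 1 or 0.4 mg/ml, and the labels leave unclear whether these concentrations belong to the antibodies or to the days. The untreated deficient groups had the same genotype without antibodies, and the floxed groups carried the floxed gene without Cre or antibodies. All mice carried B16f10-OVA tumors, a mouse melanoma line with ovalbumin, grown under the skin of the flank for 12 days. Each library pools sorted cells of 2 to 3 tumors, so the p-values below measure only the spread between such pools. Floxed mice with antibodies were not analysed here.

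CD8 and CD4 T cells part in the thymus, where the factor ThPOK (Zbtb7b) holds cells in the CD4 lineage and Runx3 in the CD8 lineage. CD8 T cells are known for killing target cells with perforin and granzymes, and CD4 T cells for helping other cells through cytokines and CD40 ligand or, as regulatory T cells with Foxp3, for restraining them. Antibodies against PD-1 and CTLA-4 block receptors that restrain T cells, and regulatory T cells carry much of the CTLA-4 in many tumors. Activated T cells express the microRNA miR-155, which pairs with its target messengers through its seed.

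The deleted microRNA was followed through its host transcript, Mir155hg (chr16:84703167-84715245, GRCm38). Mir155hg was at 0.345, 0.414 and 0.524 CPM in the treated deficient CD8 libraries, against 0.0873, 0 and 0.191 CPM in the treated deficient CD4 libraries, where CPM stands for counts per M (mega) counts after TMM scaling and values are given in the order of libraries 1, 2 and 3. In the floxed groups it averaged 16.3 ± 6.26 CPM in CD8 and 6.61 ± 1.68 CPM in CD4 cells (SD, n = 3 each). All 6 treated libraries thus held under 1 CPM of it, and the lineages were not called different there (adjusted p = 0.265). The hairpin model Mir155 itself had no count in these 6 libraries, and the mature microRNA was not measured. The mature strands of the deleted gene are taken from RefSeq (GRCm38.p6, plus strand, at chr16:84714143-84714165 and chr16:84714182-84714202), with the seed, bases 2 to 8, in capitals.
mmu-miR-155-5p: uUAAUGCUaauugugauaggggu
mmu-miR-155-3p: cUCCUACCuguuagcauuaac

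Total counts were 11645432, 3198435 and 9104322 in the CD8 libraries, against 11395340, 3364119 and 10253921 in the CD4 libraries. The second CD8 library stood apart, with 25.6% of its counts in ribosomal-like models and a TMM factor of 0.756. Without the second library of both groups, 1571 genes were called between the lineages, 709 of them higher in CD8, against 2870 with all 6. A level of 3 counts corresponds to 0.258 to 1.24 CPM in these 6 libraries, and it covers counting error only. Melanoma genes were present in every library, with a summed level of 391 to 1770 CPM in CD8 and 473 to 2060 CPM in CD4 libraries, and 0 of 15 tested were called between the lineages.

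Coreceptor levels followed the labels of the sort. Cd8a (chr6:71373427-71379173), the alpha chain of the CD8 coreceptor, had 976, 978 and 1170 CPM in CD8 libraries, against 1.83, 17.5 and 4.97 CPM in CD4 libraries, a log2 fold change of 7.36 ± 0.87 (SE, adjusted p = 7.77e-05). Cd8b1, its beta chain, had 521, 596 and 642 CPM against 11.1, 28.9 and 12.2 CPM in the CD4 libraries. Cd4 (chr6:124864692-124888221) had 2.15, 1.24 and 2.1 CPM in CD8 libraries, against 974, 1090 and 796 CPM in CD4 libraries, a log2 fold change of -8.88 ± 0.49 (SE, adjusted p = 4.35e-08). None of these overlapped between the lineages, and the second CD4 library held the most Cd8a and Cd8b1 of the 3. Without that library, the fold change of Cd8a was 8.28, and without the first CD4 library it was 6.74. ThPOK, Zbtb7b, was also higher in CD4 cells at 68.8, 68.7 and 54 CPM in CD8 against 200, 212 and 181 CPM in CD4 libraries (-1.64 ± 0.15, adjusted p = 3.32e-07). Its counterpart Runx3 had 18.2, 11.6 and 28.9 CPM in CD8, against 19, 28 and 21.5 CPM in CD4 libraries, which overlapped and were not called (adjusted p = 0.885). Gata3, a factor of CD4 lineage and type 2 help, was lower in CD8 cells (-1.52 ± 0.25, adjusted p = 0.000168), as was Cd40lg, the helper ligand that engages CD40, with 1.21, 0.414 and 0.315 CPM in CD8 against 18, 38.6 and 14.5 CPM in CD4 libraries (-4.97 ± 0.70, adjusted p = 4.93e-05, and a fold change of -6.04 without the first CD8 library).

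**Figure D1:**
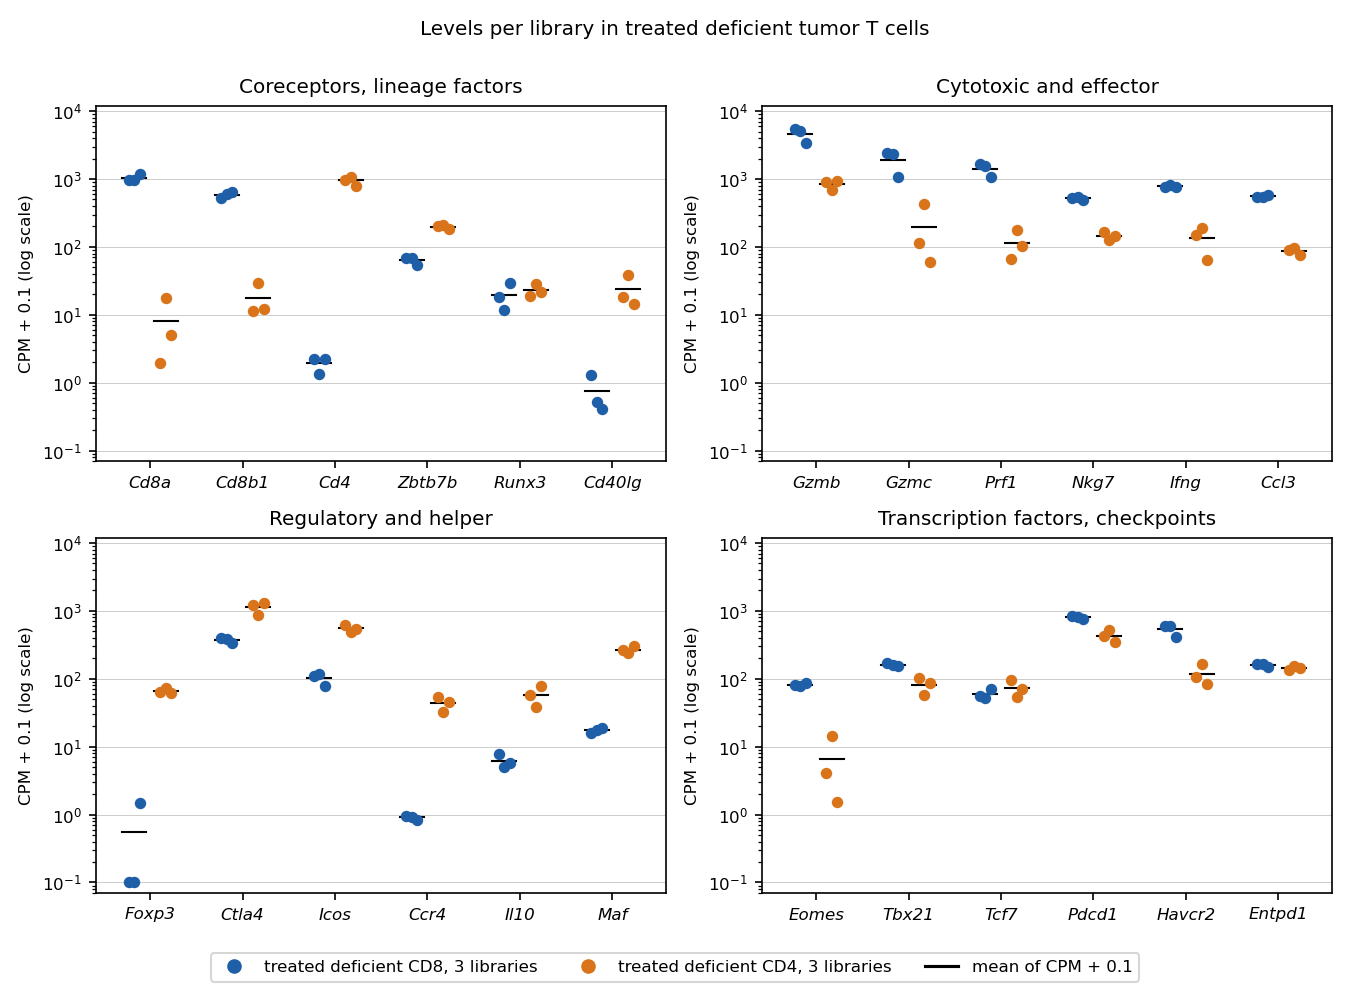
Level of 24 genes in each library (CPM + 0.1, log axis), with CD8 libraries in blue to the left of CD4 libraries in orange and a bar at the mean of each group of 3. Cd8a and Cd4 separate the lineages, Runx3, Tcf7 and Entpd1 overlap or lie close together, and the second CD4 library is the highest of its group for Cd8a, Gzmc, Prf1 and Eomes.

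Over all genes, 2870 of 14080 tested were called between the lineages (20.4%) at an adjusted p under 0.05 by edgeR's quasi-likelihood test. Of these, 1318 were higher in CD8 cells (9.36% of those tested) and 1552 in CD4 cells (11%), and 2751 were protein coding. Large differences leaned towards CD4: among called genes, 128 were at least 4-fold higher in CD8 cells against 538 in CD4 cells, and 39 against 107 were at least 16-fold higher. The CD4 libraries also held more transcript of 23 macrophage markers, summed at 5270 to 7510 CPM against 1950 to 2070 CPM in CD8 libraries. The part of macrophage transcript in this lean was not tested. The median log2 fold change of all tested genes was -0.01. Values of the CD8 and CD4 libraries did not overlap at 5963 genes (42.4%), with CD8 on top at 2968 (21.1%) and CD4 on top at 2995 (21.3%). Without the first CD8 library, the deepest of the 6, 1862 genes were called, 806 of them higher in CD8. In bulk RNA of sorted cells, fewer cells of a type and less RNA per cell cannot be told apart.

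**Figure D2:**
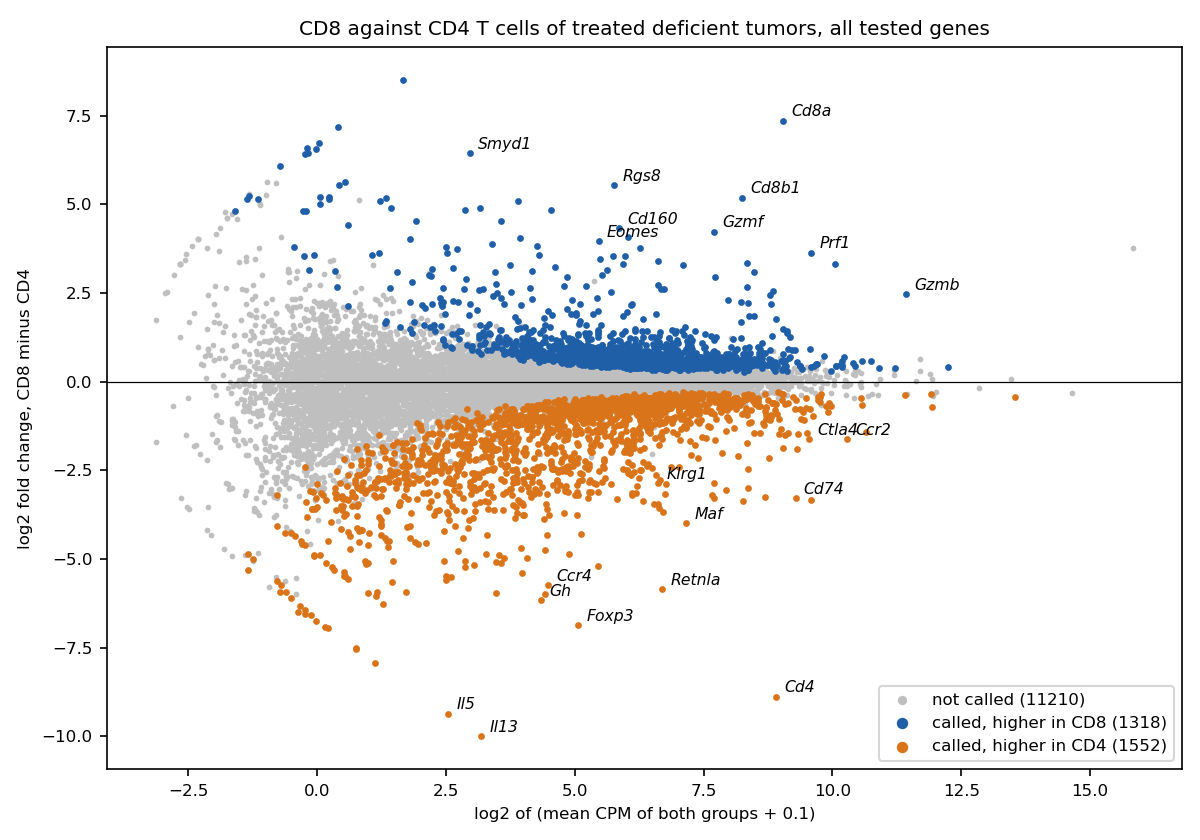
Log2 fold change, CD8 minus CD4, of the 14080 tested genes against the log2 of their mean CPM plus 0.1 in the 6 treated deficient libraries. Blue marks the 1318 genes called on the CD8 side, orange the 1552 called on the CD4 side, and the lower arm reaches further and holds more genes past 4-fold.

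The 12 largest CD8-side genes by the naming rule mix killer cell genes with genes of other kinds. After Cd8a came Smyd1, a histone methyltransferase known from muscle and CD8 T cells, with 11.8, 14.9 and 18.9 CPM in CD8 libraries, against 0.0873, 0 and 0.287 CPM in CD4 libraries (6.45 ± 0.90, adjusted p = 6.55e-05). Rgs8, which shortens G protein signals, had 142, 102 and 70.6 CPM in CD8 libraries, against 1.22, 6.63 and 1.34 CPM in CD4 libraries (5.54 ± 0.89, adjusted p = 0.000679). No library of one lineage reached the other's range for either gene. The rest were Cd8b1, Wdr95 (5.08), Mrc2 (4.90), Klra6 (4.85), Mgat3 (4.52), Cd160 (4.34), Gzmf (4.23), Klre1 (4.07) and Gipc2 (4.04), all log2 fold changes. Several of these sizes turned on 1 library. Without the first CD4 library the fold change of Mgat3 was 6.27, that of Klra6 4.26 and that of Mrc2 4.19. Without the second CD4 library that of Klra6 was 5.61, that of Gipc2 5.24 and that of Rgs8 6.35. Without the third CD4 library that of Mrc2 was 8.18 and that of Smyd1 7.48, and without the third CD8 library that of Mrc2 was 4.30. Each stayed called there. On the CD4 side the 12 largest were the cytokines Il13 and Il5, then Cd4, Foxp3, growth hormone Gh (-6.17), Abca9 (-5.98), Col18a1 (-5.96), Rnf150 (-5.94), Retnla (-5.86), the chemokine receptor Ccr4 (-5.74), Fgfr1 (-5.66) and Ncmap (-5.58). Gh had 0.689, 1.66 and 0 CPM in CD8 libraries, against 45.2, 39.8 and 34.1 CPM in CD4 libraries, and it averaged 0 ± 0 and 36.2 ± 7.58 CPM in CD8 and CD4 cells of untreated deficient tumors and had no count in floxed ones. Its counts thus came only from mice with Cre, and the source of its reads was not tested. Retnla, a protein of alternatively activated macrophages, had 1.9, 0.414 and 6.5 CPM against 248, 187 and 182 CPM in the CD4 libraries. Without the third CD8 library the fold change was -5.39 for Gh and -7.01 for Retnla.

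Killing machinery was higher in CD8 cells. Of 22 tested genes for granzymes, perforin and granule proteins, 13 were higher in CD8 and 3 in CD4 cells, against 9.36% and 11% of all tested genes. Their median log2 fold change was 1.45, against -0.01 over all tested genes. Gzmb, the granzyme that cuts caspases in the target cell, had 5450, 5130 and 3440 CPM in CD8 libraries, against 900, 700 and 947 CPM in CD4 libraries, a log2 fold change of 2.46 ± 0.26 (SE, adjusted p = 6.66e-06). Prf1, the pore former that lets granzymes in, had 1660, 1550 and 1060 CPM in CD8 libraries, against 67.4, 177 and 103 CPM in CD4 libraries, a log2 fold change of 3.64 ± 0.46 (SE, adjusted p = 0.000108). The groups stayed apart for both, although Gzmb was still abundant in the CD4 libraries. Nkg7, a membrane protein of cytotoxic granules, had 531, 546 and 494 CPM against 164, 127 and 146 CPM in the CD4 libraries and the smallest adjusted p of the list (1.84 ± 0.11, adjusted p = 1.78e-09). Gzma (2.72) and Gzmk (2.37), trypsin-like granzymes, and Fasl (1.36), the ligand of the death receptor Fas, were higher too. The 3 members higher in CD4 cells were the lysosomal membrane proteins Lamp1 (-0.92) and Lamp2 (-1.08) and the granule proteoglycan serglycin, Srgn (-0.59). Lamp1 was not called without the first CD8, the second CD4 or the third CD4 library, with an adjusted p of up to 0.0802.

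Of the granzyme cluster beside Gzmb, Gzmc, Gzmd, Gzme and Gzmf were higher in CD8 cells as well, with a wider spread, and Gzmg was not called (adjusted p = 0.55). Gzmc had 2390, 2330 and 1070 CPM in CD8 libraries, against 113, 423 and 58.9 CPM in CD4 libraries, a log2 fold change of 3.31 ± 0.70 (SE, adjusted p = 0.00503). Gzmf had 528, 510 and 141 CPM in CD8 libraries, against 8.55, 59.6 and 4.68 CPM in CD4 libraries, a log2 fold change of 4.23 ± 0.96 (SE, adjusted p = 0.00758). For both, the third CD8 library was the lowest of its group and the second CD4 library the highest of its group, with no overlap. Without the second CD4 library the fold changes were 4.50 for Gzmc and 5.89 for Gzmf, and without the third CD4 library that of Gzmf was 3.64. Gzmf was not called in the fit of the 6 treated libraries with replicate number as a block (adjusted p = 0.0546). Gzmc to Gzmg are near copies, so reads could be split between them.

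The promoters of these genes are shown because 13 of the 22 granule genes were higher in CD8 cells. They come from RefSeq (GRCm38.p6) and run from 250 bases before to 50 bases after the start of the gene. Searched on both strands were the RUNX letters TGTGGT, the T-box letters AGGTGTGA and the AP-1 letters TGANTCA, and capitals mark every match, with no overlaps between motifs. Gzmb lies at chr14:56262285-56262584, Gzmc at chr14:56234608-56234907, Gzmf at chr14:56211358-56211657 (all minus strand), Prf1 at chr10:61297586-61297885 and Nkg7 at chr7:43436888-43437187 (both plus strand). Ccr4, at chr9:114496495-114496794 on the minus strand, and Il13, at chr11:53634653-53634952 on the minus strand, are set beside them as genes higher in CD4 cells.
Gzmb: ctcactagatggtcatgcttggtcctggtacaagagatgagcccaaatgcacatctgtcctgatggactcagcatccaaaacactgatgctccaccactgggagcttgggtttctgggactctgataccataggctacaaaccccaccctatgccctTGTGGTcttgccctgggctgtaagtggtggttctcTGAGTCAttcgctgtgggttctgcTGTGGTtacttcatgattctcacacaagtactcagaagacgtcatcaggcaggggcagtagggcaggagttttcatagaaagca
Gzmc: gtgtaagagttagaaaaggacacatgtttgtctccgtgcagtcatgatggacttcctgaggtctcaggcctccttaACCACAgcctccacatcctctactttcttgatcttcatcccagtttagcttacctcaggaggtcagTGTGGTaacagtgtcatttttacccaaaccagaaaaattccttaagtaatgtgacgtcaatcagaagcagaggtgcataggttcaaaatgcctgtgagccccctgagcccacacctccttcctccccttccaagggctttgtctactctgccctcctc
Gzmf: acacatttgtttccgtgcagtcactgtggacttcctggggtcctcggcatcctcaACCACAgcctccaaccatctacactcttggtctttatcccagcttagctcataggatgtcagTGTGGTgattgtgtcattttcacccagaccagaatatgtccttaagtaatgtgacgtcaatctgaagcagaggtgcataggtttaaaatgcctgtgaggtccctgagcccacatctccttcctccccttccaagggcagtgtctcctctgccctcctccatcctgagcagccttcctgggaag
Prf1: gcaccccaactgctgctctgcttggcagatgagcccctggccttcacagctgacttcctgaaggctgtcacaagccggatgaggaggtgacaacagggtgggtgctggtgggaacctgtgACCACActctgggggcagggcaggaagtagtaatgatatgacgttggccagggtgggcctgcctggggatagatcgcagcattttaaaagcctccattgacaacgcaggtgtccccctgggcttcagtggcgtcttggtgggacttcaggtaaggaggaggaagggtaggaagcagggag
Nkg7: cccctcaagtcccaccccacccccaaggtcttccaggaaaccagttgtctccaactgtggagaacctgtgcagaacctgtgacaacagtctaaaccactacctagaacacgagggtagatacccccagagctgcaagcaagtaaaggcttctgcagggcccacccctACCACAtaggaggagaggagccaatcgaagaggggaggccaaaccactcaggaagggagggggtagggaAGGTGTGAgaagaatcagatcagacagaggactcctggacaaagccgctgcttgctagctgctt
Ccr4: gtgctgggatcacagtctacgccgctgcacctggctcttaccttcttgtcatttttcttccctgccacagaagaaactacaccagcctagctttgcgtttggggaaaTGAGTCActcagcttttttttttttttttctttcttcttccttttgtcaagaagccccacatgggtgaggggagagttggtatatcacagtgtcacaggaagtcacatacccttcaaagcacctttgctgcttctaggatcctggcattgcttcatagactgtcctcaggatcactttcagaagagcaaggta
Il13: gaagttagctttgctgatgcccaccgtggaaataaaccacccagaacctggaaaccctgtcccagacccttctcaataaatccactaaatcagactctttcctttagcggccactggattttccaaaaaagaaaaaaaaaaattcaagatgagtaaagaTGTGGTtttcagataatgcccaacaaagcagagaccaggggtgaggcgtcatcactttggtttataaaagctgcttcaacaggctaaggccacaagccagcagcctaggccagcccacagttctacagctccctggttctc

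RUNX letters were found at -93 and -34 relative to the start of Gzmb, at -174 and -108 in Gzmc, at -195 and -133 in Gzmf, at -130 in Prf1 and at -83 in Nkg7, and on the CD4 side at -91 in Il13. Nkg7 also held the T-box letters, at -14. The AP-1 letters stood at -58 in Gzmb and at -143 in Ccr4. RUNX letters were in 13 of 22 granule gene promoters (59.1%) and in 8 of 17 killer receptor promoters (47.1%), against 12.9% of tested genes with a promoter in the table, 14.2% of those called higher in CD8 cells and 14.8% of those called higher in CD4 cells. The granule list includes near copies from the granzyme cluster, so its promoters are not independent of each other, and a match is a description of the letters alone. Regulatory T cell genes had the RUNX letters in 3 of 20 promoters (15%) and helper cytokine genes in 6 of 23 (26.1%). List members were searched whether tested or not, and 16.9% of all 27025 promoters had these letters. AP-1 letters were in 29.4% of killer receptor, 21.7% of helper cytokine, 4.55% of granule and 0% of regulatory promoters, against 7.93% of all promoters. T-box letters were in 2 of 22 granule promoters (9.09%) and 0 of the other 3 lists, against 1.27% of all promoters.

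Of the effector cytokines, interferon gamma was higher in CD8 cells and tumor necrosis factor was not called. Ifng had 773, 826 and 757 CPM in CD8 libraries, against 149, 193 and 64.2 CPM in CD4 libraries, a log2 fold change of 2.55 ± 0.44 (SE, adjusted p = 0.00102). Tnf had 79, 75.7 and 60.2 CPM against 97.3, 127 and 57.9 CPM in the CD4 libraries, which overlapped and were not called (adjusted p = 0.319). Chemokine genes were on both sides, 4 of 12 tested higher in CD8 and 6 in CD4 cells. The shares of all tested genes were 9.36% and 11%, and the list's median was -1.21. Ccl3 had 544, 548 and 588 CPM in CD8 libraries, against 91.1, 96.1 and 76.6 CPM in CD4 libraries (2.68 ± 0.25, adjusted p = 1.16e-06). Xcl1, which draws cross-presenting dendritic cells, had 212, 243 and 286 CPM against 35.4, 29.8 and 10.9 CPM in the CD4 libraries (3.30 ± 0.40, adjusted p = 4.85e-05). Ccl4 (2.30) and Ccl5 (1.55), CC chemokines like Ccl3, were higher in CD8 cells as well, and Ccl3 and Xcl1 did not overlap between the lineages. The 6 higher in CD4 cells were Ccl22 and the CXC chemokines Cxcl2, Cxcl9, Cxcl10, Cxcl11 and Cxcl16.

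Killer cell receptors, best known from natural killer cells, were mostly on the CD8 side. Of 21 tested, 14 were higher in CD8 and 1 in CD4 cells, against 9.36% and 11% of all tested genes. Their median was 2.28. Klrc1 and Klrd1, the chains of the inhibitory NKG2A receptor, had 631, 666 and 461 CPM and 651, 704 and 554 CPM in CD8 libraries, against 47.5, 110 and 21.9 CPM and 73.7, 114 and 39.1 CPM in CD4 libraries. Their log2 fold changes were 3.34 ± 0.51 and 3.10 ± 0.36 (SE, adjusted p = 0.000484 and 3.27e-05), and for Klrc1 4.09 without the second CD4 library. Klrk1, the activating receptor NKG2D, had 796, 838 and 603 CPM in CD8 libraries, against 143, 189 and 80.2 CPM in CD4 libraries (2.45 ± 0.30, adjusted p = 4.97e-05). Cd244a, the SLAM family receptor 2B4, had 115, 111 and 108 CPM against 8.81, 14.8 and 10.7 CPM in the CD4 libraries (3.33 ± 0.23, adjusted p = 8.17e-09). Cd160 (4.34) and Crtam (3.76), both receptors of cytotoxic cells, separated too. The exception was Klrg1, a receptor of late effector and of some regulatory T cells, at 24.4, 22.3 and 24.4 CPM in CD8 libraries, against 200, 127 and 189 CPM in CD4 libraries, a log2 fold change of -2.85 ± 0.24 (SE, adjusted p = 1.98e-07). Klra7 (3.83) and Klra6 (4.85) belong to the Ly49 family, whose members share sequence, so their reads are uncertain. Of 9 tested markers of natural killer cells, 5 were higher in CD8 cells, and their summed level was 467 to 537 CPM in CD8 and 80 to 114 CPM in CD4 libraries. Ncr1, a defining marker, was at 1.38, 0.828 and 0.524 CPM against 2.18, 0 and 1.72 CPM in the CD4 libraries.

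Transcription factors split between the lineages, 7 of 24 tested higher in CD8 and 7 in CD4 cells. Among all tested genes the shares were 9.36% and 11%, and the list's median was -0.09. Eomes, a T-box factor of cytotoxic and memory cells, had 80.3, 78.2 and 85.7 CPM in CD8 libraries, against 3.93, 14.2 and 1.43 CPM in CD4 libraries, a log2 fold change of 3.96 ± 0.59 (SE, adjusted p = 0.000308). Its relative T-bet, Tbx21, differed less, at 169, 161 and 155 CPM in CD8 against 102, 57.8 and 86.3 CPM in CD4 libraries (0.97 ± 0.22, adjusted p = 0.00332). Both separated the lineages, and for Eomes the second CD4 library was the highest of its group: the fold change was 4.91 without it and 3.36 without the third. Maf, a factor of interleukin 10 and follicular help, had 15.6, 17.4 and 18.6 CPM in CD8 libraries, against 263, 243 and 303 CPM in CD4 libraries, a log2 fold change of -3.98 ± 0.18 (SE, adjusted p = 1.73e-11). Irf8 (0.94) was higher in CD8 cells, and Ikzf2 (-1.91), Batf (-0.96) and Runx1 (-1.70) in CD4 cells. Prdm1, or Blimp-1 (-0.36, adjusted p = 0.394), and Tcf7, the factor of stem-like T cells (-0.30, adjusted p = 0.734), were not called. With replicate number as a block in the fit of the 6 treated libraries, Prdm1 was called lower in CD8 cells (adjusted p = 0.0362). Counts of this list move with single libraries: 4 of 24 were higher in CD8 without the first or the third CD8 library and 3 without the third CD4 library, and 4 were higher in CD4 without any one of the CD8 libraries.

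Genes of inhibitory receptors and exhaustion, a list that includes the cytokine Il10, did not move as a block. Of 22 tested, 10 were higher in CD8 and 6 in CD4 cells, against 9.36% and 11% of all tested genes. Their median was 0.23. Havcr2, or TIM-3, had 608, 606 and 409 CPM in CD8 libraries, against 106, 164 and 82.6 CPM in CD4 libraries, a log2 fold change of 2.22 ± 0.28 (SE, adjusted p = 4.45e-05). Pdcd1, which encodes PD-1, had 837, 821 and 750 CPM against 422, 526 and 345 CPM in the CD4 libraries (0.90 ± 0.14, adjusted p = 0.000145). Lag3, which binds MHC class II, was higher in CD8 cells (1.43 ± 0.29, adjusted p = 0.00238). Ctla4 ran the other way, with 394, 384 and 338 CPM in CD8 libraries, against 1210, 873 and 1320 CPM in CD4 libraries, a log2 fold change of -1.61 ± 0.18 (SE, adjusted p = 2.96e-06). None of these 4 overlapped between the lineages. Btla (-1.13) was higher in CD4 cells. Neither Tigit (-0.49, adjusted p = 0.53) nor Entpd1, the ectoenzyme CD39 (0.15, adjusted p = 0.614), was called.

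**Figure D3:**
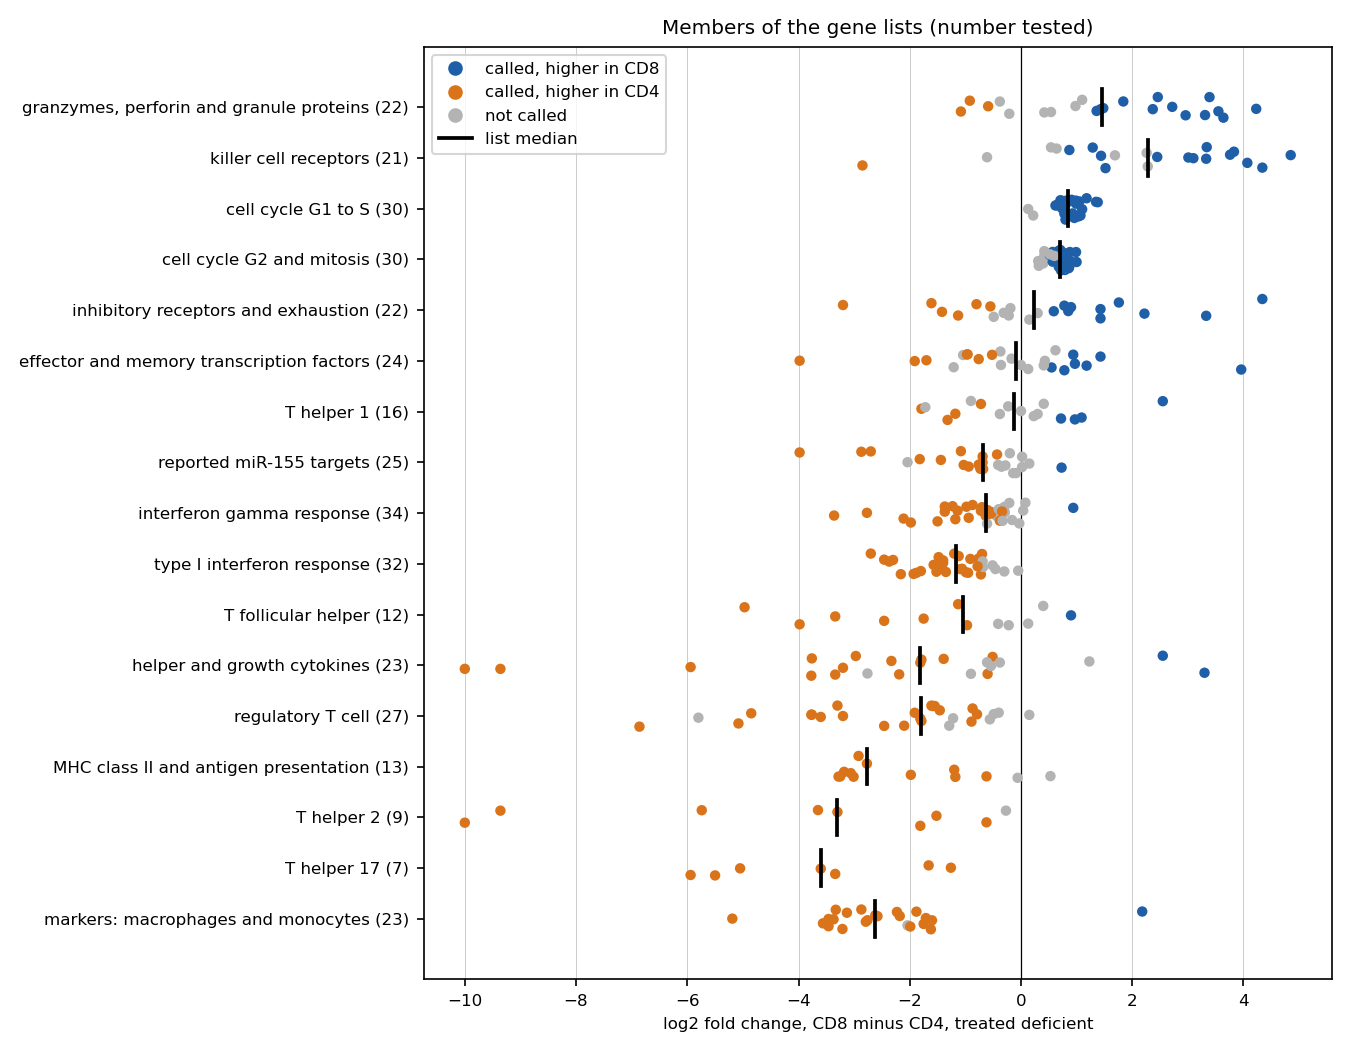
Log2 fold change, CD8 minus CD4, of each tested member of 17 gene lists in treated deficient tumors, with called members in blue (higher in CD8) or orange (higher in CD4), others in grey and a black bar at the list's median. Granule genes, killer receptors and cell cycle genes lie to the right, while regulatory, helper, interferon and MHC class II genes lie to the left together with macrophage markers.

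Of 27 regulatory T cell genes tested, 20 were higher in CD4 and 0 in CD8 cells, against 11% and 9.36% of all tested genes. Their median was -1.79. Foxp3, the factor that defines these cells, had 0, 0 and 1.36 CPM in CD8 libraries, against 63.7, 73.2 and 62.2 CPM in CD4 libraries, a log2 fold change of -6.86 ± 0.65 (SE, adjusted p = 2.99e-06). Only the third CD8 library held any Foxp3 count. The fold change was -5.99 without the first CD8 library, and without the third the CD8 group had 0 counts and its fold is not given. Icos, a costimulatory receptor, had 110, 116 and 77.9 CPM against 630, 497 and 534 CPM in the CD4 libraries (-2.46 ± 0.21, adjusted p = 2.73e-07). Ikzf2, or Helios, had 245, 223 and 335 CPM in CD8 libraries, against 1040, 875 and 1120 CPM in CD4 libraries (-1.91 ± 0.26, adjusted p = 8.53e-05), so CD8 cells held it as well. The chemokine receptor Ccr8 (-3.30), the receptors OX40 (Tnfrsf4, -2.10) and GITR (Tnfrsf18, -1.46) and the surface protein GARP (Lrrc32, -5.08, and -6.20 without the third CD8 library) were also higher in CD4 cells. Il2ra, the alpha chain of the interleukin 2 receptor, had 60, 61.7 and 40.5 CPM against 130, 160 and 107 CPM in the CD4 libraries, separate but not called (adjusted p = 0.054). It was called with replicate number as a block (adjusted p = 0.00029 in the fit of 18 libraries). Nrp1 (-0.56, adjusted p = 0.0575) and Tnfrsf9, or 4-1BB (-0.19, adjusted p = 0.562), were not called.

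Helper cytokines were mostly CD4 genes, 15 of 23 tested higher there against 2 in CD8 cells. All tested genes had shares of 11% and 9.36%, and the list's median was -1.81. Another 4 of the 27 members were not tested, and a gene could pass the filter on low counts through CD4 libraries alone. Il10, which restrains macrophages and dendritic cells, had 7.58, 4.97 and 5.66 CPM in CD8 libraries, against 57.6, 38.9 and 76.9 CPM in CD4 libraries, a log2 fold change of -3.20 ± 0.33 (SE, adjusted p = 4.61e-06). The type 2 cytokines Il13 (chr11:53631324-53634702) and Il5 (chr11:53720794-53725106), neighbours on chromosome 11, had no count in any CD8 library, against 16.1, 35.8 and 2.1 CPM of Il13 and 11.8, 21.4 and 1.43 CPM of Il5 in the CD4 libraries. Against a floor of 3 counts over the group, Il13 was at least 101-fold lower and Il5 at least 68.7-fold lower in CD8 cells (adjusted p = 0.0197 and 0.000306). The third CD4 library held far less of both than the other 2, and Il13 was no longer called without the first or the third CD8 library (adjusted p = 0.0788 and 0.0677). Il21, the follicular helper cytokine, was lower in CD8 cells (-3.34 ± 0.70, adjusted p = 0.00227), and -3.34 became -2.54 without the second CD4 library. Il2 had 1.81, 0.828 and 4.3 CPM in CD8 libraries, against 12.3, 10.5 and 3.44 CPM in CD4 libraries, which overlapped, and its call (adjusted p = 0.0413) held in only 2 of the 6 fits that left out 1 library, with an adjusted p of 0.103 to 0.18 where it was lost. With replicate number as a block it was not called either (adjusted p = 0.0938 in the fit of 18 libraries). Amphiregulin, Areg (-3.76), a repair factor, and proenkephalin, Penk (-2.33), were higher in CD4 cells.

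Genes of T helper 2 and T helper 17 cells were on the CD4 side at 8 of 9 and 7 of 7 tested. The share of all tested genes called on that side was 11%, and the list medians were -3.30 and -3.60. Another 4 of 13 and 5 of 12 members were not tested. A gene could pass the filter on low counts through CD4 libraries alone, so these counts are in part set by the filter. Ccr4, a receptor of type 2 and regulatory cells, had 0.861, 0.828 and 0.734 CPM in CD8 libraries, against 53.5, 31.9 and 45.7 CPM in CD4 libraries, a log2 fold change of -5.74 ± 0.46 (SE, adjusted p = 5.96e-08). For Il17a, the defining cytokine of T helper 17 cells, the call (adjusted p = 0.0195) was lost without the first CD8, the third CD8 or the third CD4 library (adjusted p = 0.113, 0.0984 and 0.0892). Without the first CD8 library 4 of the 7 T helper 17 genes were called. Among T helper 1 genes, 4 of 16 were higher in CD8 and 4 in CD4 cells, against 9.36% and 11% of all tested genes. Ifng and Tbx21 were on the CD8 side, and Cxcr3 (-1.32), the receptor of the interferon-induced chemokines, on the CD4 side.

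Chemokine receptors and homing genes were higher in CD4 cells at 15 of 26 tested and in CD8 cells at 2. Of all tested genes 11% and 9.36% were. Ccr2, the receptor of monocyte attractants, had 650, 642 and 555 CPM in CD8 libraries, against 1890, 1590 and 2170 CPM in CD4 libraries (-1.62 ± 0.24, adjusted p = 0.000125). Cxcr6, a receptor of tissue T cells, was higher in CD8 cells (0.72 ± 0.18, adjusted p = 0.00686) but not without the third CD4 library (adjusted p = 0.0502). S1pr1, which guides exit from tissue, was higher in CD4 cells (-1.08 ± 0.28, adjusted p = 0.0108) but not without the first CD4 or the first CD8 library (adjusted p = 0.0563 and 0.0533). Cxcr5, the follicle homing receptor, was not called (adjusted p = 0.615). Of 21 integrin and adhesion genes, 2 were higher in CD8 cells, near the 9.36% of all tested genes, and 9 in CD4 cells, against 11%. Itgae, the CD103 chain that binds E-cadherin and is common on CD8 cells of tissues, was higher in CD4 cells here (-1.73 ± 0.42, adjusted p = 0.00832). Its fold change was -2.59 without the third CD8 library. Jaml (2.61), an adhesion molecule of effector cells, was higher in CD8 cells.

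Receptors of the TNF family and their ligands were higher in CD4 cells at 13 of 26 and in CD8 cells at 1, Fasl. Of all tested genes 11% and 9.36% were. The death receptor family member DR3, Tnfrsf25 (-3.45 ± 0.31, adjusted p = 2.57e-07), and CD30, Tnfrsf8 (-3.16 ± 0.32, adjusted p = 7.19e-07), had the smallest adjusted p on the CD4 side, while the lowest fold change of the list was that of Cd40lg. Cytokine receptors were higher in CD4 cells at 10 of 29, against 11% of all tested genes. In CD8 cells 3 of 29 were higher, near the 9.36% of all tested genes. The receptor of interleukin 33, Il1rl1 (-1.81), was on the CD4 side and the interleukin 10 receptor chain Il10ra (0.80) on the CD8 side. Of 20 genes of T cell receptor signalling, 3 were higher in CD8 and 4 in CD4 cells, against 9.36% and 11% of all. Libraries did not overlap at 6 of them with CD8 on top and 7 with CD4 on top, against 21.1% and 21.3%. Among them the negative regulator Cd5 was lower in CD8 cells (-1.74 ± 0.17, adjusted p = 3.88e-07), and the surface protein Thy1, which all mouse T cells carry, was higher there (0.92 ± 0.15, adjusted p = 0.000181).

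Cell cycle genes were higher in CD8 cells by small steps. Of 30 G1 and S phase genes, 28 were higher in CD8 and 0 in CD4 cells, against 9.36% and 11% of all tested genes. Their median was 0.84. Rrm2, a subunit of the enzyme that makes deoxynucleotides, had 176, 178 and 169 CPM in CD8 libraries, against 88, 72.3 and 82.1 CPM in CD4 libraries, a log2 fold change of 1.10 ± 0.13 (SE, adjusted p = 6.23e-06). Mcm7, a part of the replicative helicase, differed by 1.03 ± 0.14 (adjusted p = 2.17e-05) and the DNA methylation factor Uhrf1 by 1.18 ± 0.18 (adjusted p = 9.26e-05). Of 30 genes of G2 phase and mitosis, 20 were higher in CD8 cells, with a median of 0.71. That count was 13 without the first CD4 library and 10 without the second library of both groups. Birc5, or survivin, differed by 0.99 ± 0.15 (adjusted p = 0.000117). Mki67, the usual marker of dividing cells, had 879, 808 and 816 CPM in CD8, against 628, 739 and 658 CPM in CD4 libraries and was not called (adjusted p = 0.312), but it was in the fit of the 6 treated libraries with replicate number as a block (adjusted p = 0.0199). In glycolysis 4 of 22 genes were higher in CD8 cells and 1 in CD4 cells, against the same 9.36% and 11%. Their median was -0.01. Among the glycolysis genes higher in CD8 cells were the enolase Eno3 (1.63) and the glucose transporter Slc2a3 (1.30). Oxidative phosphorylation had 4 of 28 called higher in CD8 cells, against 9.36% of all, and 2 without the second CD4 or the first or second CD8 library. Fold changes of the 28 were small and leaned to CD8, from 0.01 to 0.52 with a median of 0.22. Libraries did not overlap at 15 of them with CD8 on top and 0 with CD4 on top, against 21.1% and 21.3% of all.

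Interferon response genes were higher in CD4 cells. Of 32 type I interferon genes 26 were higher in CD4 and 0 in CD8 cells, with a median of -1.16. Of 34 interferon gamma genes 22 were higher in CD4 and 1 in CD8 cells, with a median of -0.62. The shares of all tested genes were 11% and 9.36%. Ifi27l2a, an interferon-induced mitochondrial protein, differed by -2.16 ± 0.25 (adjusted p = 1.39e-05). Iigp1, a GTPase that attacks vacuoles of intracellular parasites, differed by -3.36 ± 0.33 (adjusted p = 4.91e-06). Irf1 (-0.87), a factor that carries the interferon signal, was lower in CD8 cells, the cells with the higher Ifng level. MHC class II genes were higher in CD4 cells at 11 of 13, against 11% of all tested genes, with a median of -2.77. Cd74, the class II chaperone, had 80.2, 113 and 155 CPM in CD8 libraries, against 881, 1300 and 1210 CPM in CD4 libraries, a log2 fold change of -3.28 ± 0.36 (SE, adjusted p = 2.17e-05). H2-Ab1, a class II chain, had 51.3, 78.6 and 87.6 CPM against 428, 723 and 591 CPM in the CD4 libraries (-3.01 ± 0.35, adjusted p = 3.09e-05). The 2 groups did not overlap for either gene.

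Markers of macrophages and monocytes moved with these lists. Of 23 markers, 21 were higher in CD4 and 1, Ly6c2, which T cells also express, in CD8 cells. The shares of all tested genes were 11% and 9.36%, and the median of the 23 markers was -2.62. Their summed level was 1950 to 2070 CPM in CD8 and 5270 to 7510 CPM in CD4 libraries, and Ccr2, which T cells express too, is among them. Apoe, a lipid carrier of macrophages, had 23.3, 26.1 and 66.8 CPM in CD8 libraries, against 383, 270 and 443 CPM in CD4 libraries, a log2 fold change of -3.21 ± 0.38 (SE, adjusted p = 4.31e-05), and -3.90 without the third CD8 library. The complement gene C1qa had 11.9, 10.3 and 22.2 CPM against 146, 189 and 214 CPM in the CD4 libraries (-3.56 ± 0.46, adjusted p = 0.000108). No defining marker was at 0 in either lineage. Dendritic cell markers were higher in CD4 cells at 5 of 12 and in CD8 cells at 1, with a summed level of 63.3 to 78.1 CPM in CD8 and 96 to 133 CPM in CD4 libraries. The part of these cells in the MHC class II, interferon and chemokine receptor differences was not tested. Nor was it tested for the largest CD4-side differences, such as those of Retnla and Abca9. In a fit with the mean level of 8 macrophage genes as a covariate, chosen after seeing the data, 200 genes were called between the lineages, with 0 of the MHC class II, type I interferon and G1 to S genes, 11 of the regulatory T cell genes and 3 each of the granule and killer receptor genes. That level was 3.98, 4.04 and 4.81 in the CD8 libraries and 7.03, 7.66 and 7.74 in the CD4 libraries (mean log2 CPM), so it separates the lineages by itself and the covariate and the lineage can hardly be told apart. Markers of gamma delta T cells were higher in CD8 cells at 3 of 5, among them the receptor constant segment Tcrg-C2 at 38.8, 48.4 and 46.5 CPM against 1.66, 1.2 and 1.53 CPM in the CD4 libraries, while Trdc, which defines these cells, was not called (adjusted p = 0.335).

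**Figure D4:**
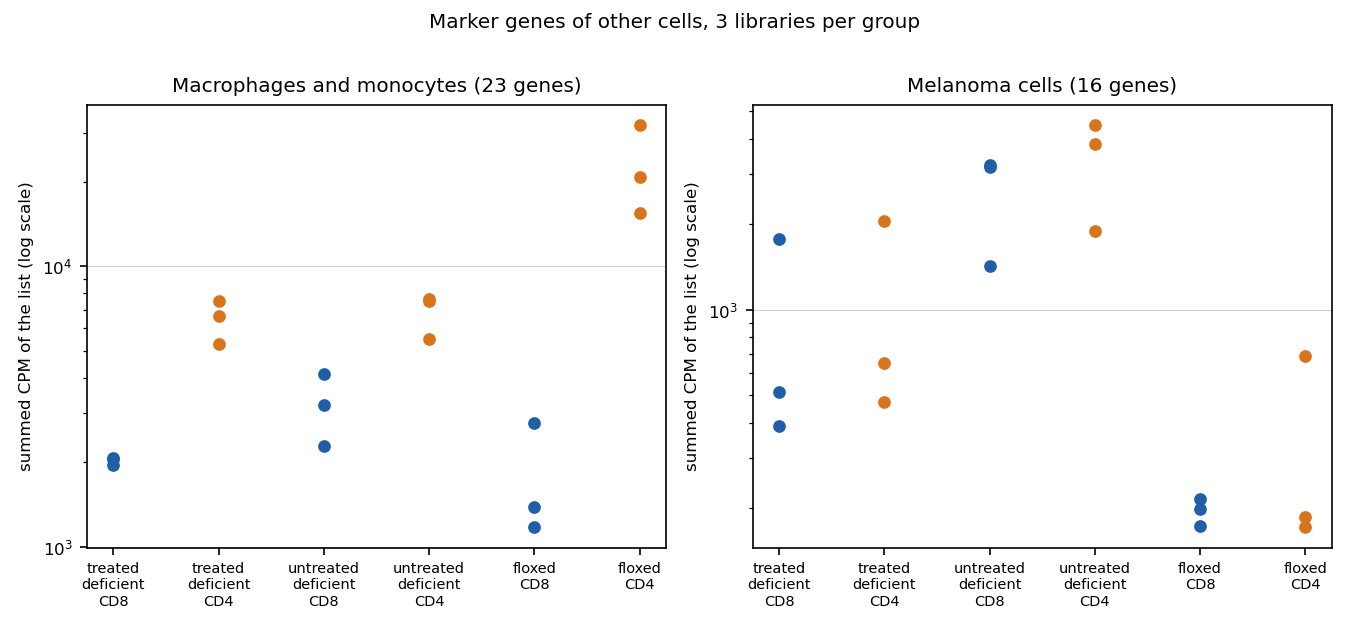
Summed CPM (log axis) of 23 marker genes of macrophages and monocytes and of 16 of melanoma cells in each of the 3 libraries of every group, CD8 in blue and CD4 in orange. Macrophage markers are higher in CD4 than in CD8 libraries of all 3 kinds of tumor, by most in floxed tumors, and melanoma markers overlap between the lineages.

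Reported targets of miR-155 were higher in CD4 cells at 14 of 25 tested and in CD8 cells at 1. All tested genes had shares of 11% and 9.36%, and the list's median was -0.69. Socs1 (-0.94 ± 0.15, adjusted p = 0.000149), a brake on cytokine signals, and Inpp5d (-0.76 ± 0.15, adjusted p = 0.00095), the phosphatase SHIP1, were lower in CD8 cells. Cebpb (-1.82) and Fos (-1.44) were lower there as well, and the list also holds the macrophage gene Csf1r and the CD4 gene Maf. Both lineages carry the deletion in these tumors and the mature microRNA was not measured, so the list is given for its levels alone. Genes of STAT5 feedback were higher in CD4 cells at 10 of 20, against 11% of all tested genes. In CD8 cells 2 of 20 were higher, near the 9.36% of all tested genes. Socs2 (-2.79), Pim1 (-1.01) and Bcl2l1 (-1.39) were higher in CD4 and Bcl2 (1.24) in CD8 cells. In the receptor-induced list 3 of 29 were higher in CD8 cells, near the 9.36% of all tested genes, and 7 in CD4 cells, against 11% of all. Spry2, a brake on the MAPK pathway, had the smallest adjusted p of that list, with 40.5, 39.7 and 51 CPM in CD8 against 2.88, 7.83 and 4.59 CPM in CD4 libraries (3.24 ± 0.29, adjusted p = 2.1e-07). Among naive and memory genes 4 of 21 were higher in CD8 and 5 in CD4 cells, against 9.36% and 11% of all tested genes. Slamf6 (-1.75) was on the CD4 side, and the counts were as few as 2 on either side without 1 library.

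The lineage difference was then set beside those of untreated deficient and of floxed tumors. In untreated deficient tumors 2196 genes were called between CD8 and CD4 cells (15.6%), 874 higher in CD8 (6.21%) and 1322 in CD4 cells (9.39%). In floxed tumors there were 5506 (39.1%), 2662 higher in CD8 (18.9%) and 2844 in CD4 cells (20.2%). Of the 1318 genes higher in CD8 cells of treated tumors, 486 were also called so in untreated deficient tumors, 36.9% of the treated list and 55.6% of the untreated one. For floxed tumors it was 974, 73.9% of the treated list and 36.6% of the floxed one. Of the 1552 genes higher in CD4 cells, 765 were shared with untreated deficient tumors (49.3% and 57.9%) and 1262 with floxed tumors (81.3% and 44.4%). The difference of the lineage differences was called at 113 genes between treated and untreated deficient tumors (0.803%), 81 higher and 32 lower, and at 736 genes between treated deficient and floxed tumors (5.23%), 562 higher and 174 lower. In the second of these, genotype and antibodies differ together and cannot be told apart.

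Against untreated deficient tumors, 4 of the 22 granule genes (Gzmb, Gzmk, Fasl and Nkg7) and 2 of the 21 killer receptor genes (Cd244a and Klrg1) had a higher lineage difference in treated tumors and 0 a lower one, against 0.575% and 0.227% of all tested genes. The median of the differences was 0.35 over the granule genes and 0.28 over the killer receptor genes. Gzmb averaged 4670 ± 1080 CPM in CD8 and 849 ± 131 CPM in CD4 cells of treated deficient tumors, and 754 ± 330 and 843 ± 165 CPM in CD8 and CD4 cells of untreated deficient tumors (SD, n = 3 each). The log2 fold changes between lineages were 2.46 and -0.16, which differed by 2.62 ± 0.36 (adjusted p = 0.002). The untreated fold change was not called (adjusted p = 0.742). In floxed tumors the fold change was 1.58. Cd244a averaged 111 ± 3.72 CPM in CD8 and 11.4 ± 3.04 CPM in CD4 cells of treated tumors, and 25.4 ± 4.76 and 15.9 ± 0.997 CPM in CD8 and CD4 cells of untreated deficient tumors, a difference of 2.66 ± 0.32 (adjusted p = 0.00015). Ccl4 (2.22 ± 0.26) and Nkg7 (0.87 ± 0.16) moved likewise. The calls of Gzmb, Cd244a, Ccl4 and Nkg7 held in each of the 12 fits that left out 1 library. Gzmf averaged 393 ± 218 CPM in CD8 and 24.3 ± 30.7 CPM in CD4 cells of treated tumors, and 29.2 ± 22.3 and 0.0943 ± 0.163 CPM in CD8 and CD4 cells of untreated deficient tumors, and its lineage difference was not called different (adjusted p = 0.658).

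The list of inhibitory receptors and exhaustion, which includes the cytokine Il10, had 22 tested genes. Of these, 8 had a higher lineage difference in treated than in untreated deficient tumors, 0 a lower one, and 14 did not pass the test. Of all tested genes, 0.575% had a higher lineage difference and 0.227% a lower one. Of the 27 regulatory T cell genes, 3 had a higher one, Ctla4, Entpd1 and Il10, which are on both lists, and 0 a lower one. Entpd1 averaged 160 ± 10.7 CPM in CD8 and 144 ± 10.3 CPM in CD4 cells of treated tumors, and 30.2 ± 10.7 and 145 ± 14.4 CPM in CD8 and CD4 cells of untreated deficient tumors. It was lower in CD8 cells of untreated tumors (adjusted p = 4.43e-08) and not called in treated ones, and the differences differed by 2.42 ± 0.25 (adjusted p = 5.3e-05). Ctla4 averaged 372 ± 29.6 CPM in CD8 and 1130 ± 230 CPM in CD4 cells of treated tumors, and 117 ± 11.2 and 1370 ± 58.9 CPM in CD8 and CD4 cells of untreated deficient tumors (1.94 ± 0.25, adjusted p = 0.000394). Klrg1 (3.26 ± 0.36), Il10 (3.73 ± 0.52) and Tnfrsf9 (1.62 ± 0.28) also stood closer to level in treated tumors. These 5 were called in all 12 fits that left out 1 library. The differences of Havcr2 (2.02 ± 0.39, adjusted p = 0.0215), Lag3 (2.04 ± 0.42, adjusted p = 0.0286) and Pdcd1 (0.92 ± 0.20, adjusted p = 0.0345) were called in only 5, 4 and 3 of those 12.

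**Figure D5:**
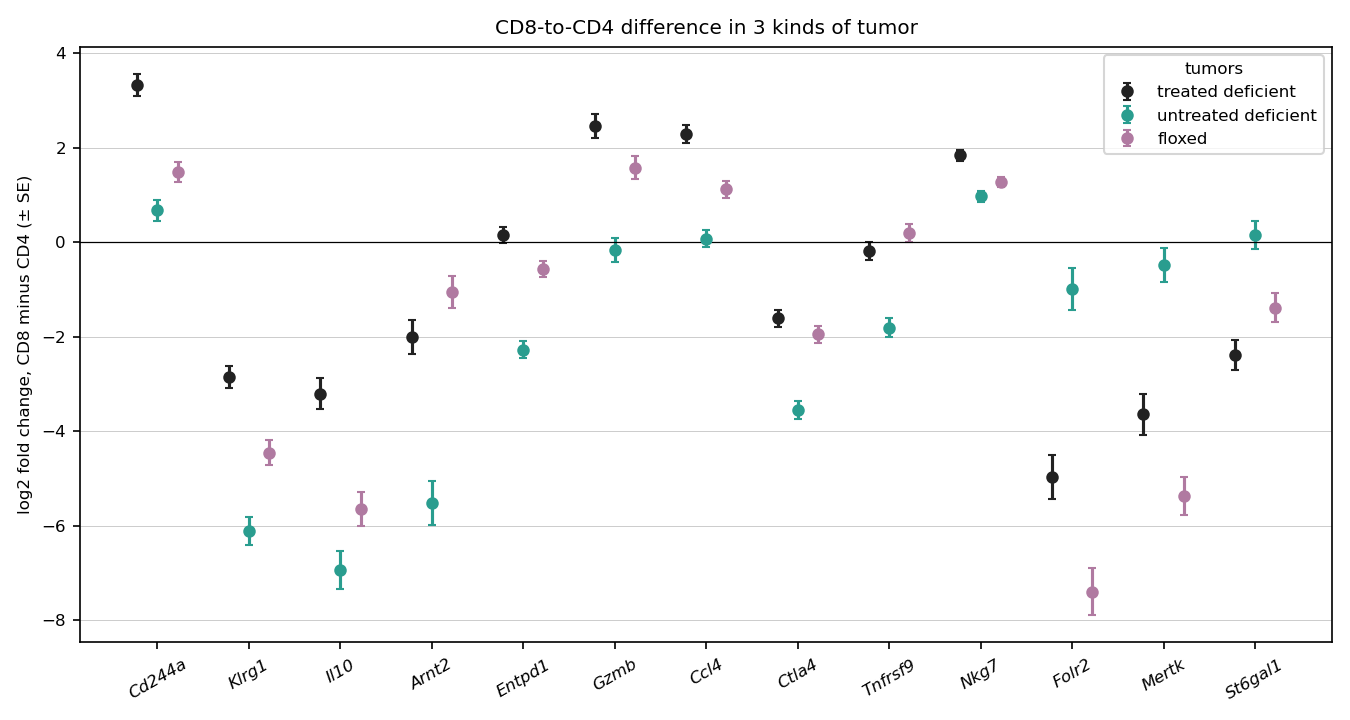
Log2 fold change, CD8 minus CD4, with its SE, in treated deficient, untreated deficient and floxed tumors for the 13 genes named for the difference between treated and untreated deficient tumors whose call held in every fit that left out 1 library. For the first 10 genes the treated value lies above the untreated deficient one, and for Folr2, Mertk and St6gal1 below it.

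Genes with a lower lineage difference in treated than in untreated deficient tumors were led by Fcna, Abca9, Folr2 and Mertk, of which Folr2 and Mertk are receptors of macrophages. Folr2 averaged 0.812 ± 0.788 CPM in CD8 and 32.8 ± 2.9 CPM in CD4 cells of treated tumors, and 2.61 ± 1.24 and 5.12 ± 0.983 CPM in CD8 and CD4 cells of untreated deficient tumors (-3.98 ± 0.66, adjusted p = 0.00523). The macrophage marker sum was 1950 to 2070 CPM in treated CD8 and 5270 to 7510 CPM in treated CD4 libraries, and 2280 to 4130 and 5500 to 7620 CPM in untreated deficient CD8 and CD4 libraries. Its part in these differences was not tested. The count of 113 was 58 without the second or the third untreated CD4 library, 61, 75 and 71 without the first, the second and the third untreated CD8 library, 65 and 73 without the first and the third treated CD4 library, and 49 and 56 without the first and second treated CD8 library. With replicate number as a block it was 286, 138 higher and 148 lower.

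Against floxed tumors, the lineage difference was lower in treated deficient tumors at 6 of the 30 genes of G2 phase and mitosis and 3 of the 30 of G1 and S phase, and higher at 0 of either, against 1.24% and 3.99% of all tested genes. Mki67 averaged 835 ± 38.8 CPM in CD8 and 675 ± 57.3 CPM in CD4 cells of treated deficient tumors, and 1330 ± 235 and 390 ± 162 CPM in CD8 and CD4 cells of floxed tumors, which gave lineage fold changes of 0.31 and 1.77 and a difference of -1.46 ± 0.28 (adjusted p = 0.00486). Of 23 macrophage markers, 11 had a higher difference in treated deficient tumors and 0 a lower one, with summed levels of 1170 to 2770 CPM in CD8 and 15500 to 31900 CPM in CD4 libraries of floxed tumors. A higher difference and 0 lower ones were also found at 5 of 12 chemokines, 4 of 13 MHC class II genes and 6 of 21 killer receptors. The same held for 8 of 32 type I interferon genes, 5 of 22 granule genes and 5 of 22 genes of inhibitory receptors and exhaustion. The granule genes were Gzma, Nkg7, Srgn, Lamp1 and Lamp2, of which Srgn, Lamp1 and Lamp2 were higher in CD4 cells of treated deficient tumors. A higher difference can be a larger CD8 excess or a smaller CD4 excess. Median lineage fold changes in treated deficient and floxed tumors were -2.62 and -4.22 for macrophage markers and -2.77 and -4.23 for MHC class II genes. They were -1.16 and -1.99 for type I interferon genes, -1.21 and -2.84 for chemokines, and 2.28 and 1.37 for killer receptors. Granule genes had 1.45 and 1.42, and genes of inhibitory receptors and exhaustion 0.23 and 0.21, so these medians hardly differed. Il10 had -3.20 and -5.64, a smaller CD4 excess in treated deficient tumors. Gzma (1.93 ± 0.46), Il10 (2.43 ± 0.48), Ccl4 (1.17 ± 0.25) and Nkg7 (0.56 ± 0.16) had a higher difference in treated deficient tumors. Of these, the calls of Il10 and Ccl4 held in all 12 fits that left out 1 library, that of Gzma in 7 and that of Nkg7 in 5. Floxed CD4 libraries also held more CD8 coreceptor transcript. Cd8a averaged 102 ± 75.8 CPM there, against 8.09 ± 8.27 CPM in treated deficient CD4 libraries (SD, n = 3 each). Cd8b1 averaged 65.7 ± 42.3 CPM against 17.4 ± 9.98 CPM. The part of CD8 transcript in floxed CD4 libraries in these differences was not tested. The count of 736 was 395 and 1191 without the third and the second floxed CD4 library, 1124 without the second floxed CD8 library, 392 and 479 without the first and second treated CD4 library, and 486, 369 and 352 without the first, the second and the third treated CD8 library. With replicate number as a block, the genes with a lower difference numbered 272.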

How the data were processed

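Each library has 1 deposited file, which holds whole-number read counts for every gene model and no normalized values. Per the file headers, the authors counted with featureCounts 1.5.1, reverse stranded (option 2), on the Ensembl release 87 annotation, and per the submitters' processing notes with STAR on GRCm38. Symbols came from GENCODE M21 for 49326 of 49671 gene models.

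Counts of all 18 libraries were fitted together with 6 group means in edgeR 4.0.16 under R 4.3.3, after filterByExpr and TMM scaling and with robust quasi-likelihood, with 12 residual degrees of freedom and 14080 genes tested. P-values of the two-sided quasi-likelihood test were adjusted by the Benjamini-Hochberg method over all tested genes, and genes were called at an adjusted p under 0.05. Levels are TMM-scaled CPM, and log2 fold changes are CD8 minus CD4. Differences of lineage differences were contrasts of the same fit. The fit was also run on simulated counts that gave every gene the common spread found in these data. That checks the code and not the calls.

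Named are a set list of T cell genes, the 12 largest called differences per direction (at least 5 CPM in the higher group, no overlap, no unnamed models), the 6 per direction for each difference of differences, and per list the 4 members with the smallest adjusted p. Lamp1, Lamp2, Srgn, Ncr1, Trdc and a few others outside that rule were chosen after their values were seen. A few genes that the rule names are not reported here. Members and lists were chosen with earlier results of these data known.

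Equal replicate numbers were checked for pairing, since the labels do not say whether CD8 and CD4 pools come from the same tumors. Deviations from the group means of same-numbered treated CD8 and CD4 libraries correlated across genes at 0.105, 0.103 and 0.289, so a replicate block is given where it changed a call.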

Additional observations from a re-analysis of the deposited data

Results flagged for a closer look

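The lineage difference, CD8 minus CD4, differed between treated and untreated deficient tumors at 24 named genes by the test of the difference itself (edgeR, adjusted p under 0.05). It was higher in treated tumors for Rassf6 (6.21), Il10 (3.73), Arnt2 (3.51), Klrg1 (3.26) and Cd244a (2.66), all as log2 differences, and for the effector and receptor genes Gzmb (2.62), Entpd1 (2.42), Ccl4 (2.22), Lag3 (2.04), Havcr2 (2.02), Ctla4 (1.94), Prdm1 (1.78), Tnfrsf9 (1.62), Gzmk (1.60), Fasl (1.35), Ccl5 (0.95), Pdcd1 (0.92) and Nkg7 (0.87). It was lower for Fcna (-6.59), Abca9 (-4.88), Folr2 (-3.98), Mertk (-3.17), St6gal1 (-2.54) and Tnfsf8 (-2.50). Rassf6 had no count in untreated deficient CD8 cells, so its fitted difference is not a measured size. The call held in all 12 fits that left out 1 library for 13 of the 24 genes. It held in 11 for Abca9, 8 for Fasl, 6 for Fcna, 5 for Havcr2, 4 for Lag3, 3 for Pdcd1, Rassf6 and Tnfsf8, 2 for Gzmk and Ccl5 and 1 for Prdm1.

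Between treated deficient and floxed tumors the lineage difference differed at 17 named genes. It was higher in treated deficient tumors for Fcrlb (6.71), Slc40a1 (5.71), Lipg (5.19), Mamdc2 (5.19), Slpi (5.19), Ccl17 (4.99), Il10 (2.43), Gzma (1.93), Ccl4 (1.17) and Nkg7 (0.56). It was lower for Pcdh7 (-8.74), Nectin3 (-7.70), Vipr2 (-5.12), Ccr6 (-4.97), Fat1 (-4.87), Pak6 (-4.24) and Mki67 (-1.46). Fcrlb had no count in floxed CD8 cells, and Pcdh7 and Nectin3 had none in floxed CD4 cells, so their fitted differences are not measured sizes. The call held in all 12 fits that left out 1 library for Mamdc2, Pak6, Mki67, Il10 and Ccl4. With replicate number as a block, Ccl17, Vipr2 and Fat1 were no longer called (adjusted p = 0.0521, 0.0531 and 0.12). Genotype and antibodies differ together here and cannot be told apart.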

How the results depend on the processing

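The 2870 calls between the lineages became 2832 to 3952 under the planned scalings, filters, tools and blocks, and 1862 to 2301 without 1 library (806 to 1040 higher in CD8, 1056 to 1277 higher in CD4). Of alternatives chosen after seeing the data, the second libraries of both groups left out gave 1571 (709 and 862), and the macrophage covariate 200 (57 and 143). Of 136 named called genes, 130 were called in every fit without 1 library. Direction reversed with the covariate for Cxcl9 (0.20), Lamp1 (0.69), Lamp2 (0.14), Mki67 (-0.24), Nrp1 (0.00), Runx3 (0.39), Tnf (0.34) and Trdc (-0.30), and for Runx3 without the second library of both groups (0.24), of CD4 (0.01) or of CD8 (0.07); without any 1 library Runx3 ran from -0.53 to 0.07. For the difference from untreated tumors, 113 genes (81 higher, 32 lower), DESeq2 gave 355 (203, 152), no filter 665 (232, 433), the replicate block 286 (138, 148), the covariate 27 (18, 9), the second libraries out 57 (41, 16) and limma voom 21 lower. Without 1 library it gave 49 to 108 (36 to 77, 13 to 31). For the difference from floxed tumors, 736 genes (562, 174), DESeq2 gave 1340 (502 lower), no filter 1469 (637 lower), the block 272 lower, limma voom 81 lower, the covariate 50 (45, 5) and the second libraries out 226 (214, 12). Without 1 library it gave 352 to 1191 (319 to 767, 33 to 441). The cause of these shifts was not tested. With replicate number as a block, Il2 lost its call and Il2ra gained one, in the fits of 18 and of 6 libraries; in the fit of 6, Gzmf was also lost and Mki67, Prdm1 and Rassf6 gained. The shallowest libraries, with 3198435 and 3364119 counts, limit genes near 1 CPM.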
